A study of Mus musculus with 4 samples.

Results

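The genes described here encode the receptors through which spinal cord cells sense glutamate, GABA and glycine. They were chosen by symbol alone: the AMPA (Gria), kainate (Grik), NMDA (Grin), delta (Grid) and metabotropic (Grm) glutamate receptors, the GABA-A (Gabra, Gabrb, Gabrg and minor classes) and GABA-B (Gabbr) receptors, and the glycine receptors (Glra, Glrb). Symbols of this kind named 52 of the 22096 genes in the tables, with 66 RefSeq transcripts, of which none was shorter than 300 bases. RNA came from whole spinal cord of mice of mixed strain background at postnatal day 8, in 2 control libraries (Chd7f/+; Olig1-cre) and 2 conditional knockout libraries (Chd7f/f; Olig1-cre, called cKO). Every animal thus carried Olig1-cre, which drives Cre recombinase from a gene of the oligodendrocyte lineage, and the controls had 1 floxed allele of Chd7, a chromatin remodeler. The labels do not say whether each library came from a separate animal or from pooled cords, so the spread between libraries may be technical. The p-values and SEs rest mostly on the spread of other genes of similar level (36.3 prior against 2 residual degrees of freedom). They are not a measure of each gene's own spread.

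Glutamate is the main excitatory transmitter of the cord, and GABA and glycine are the inhibitory ones. AMPA, kainate and NMDA receptors are cation channels built from subunits of one class each, while metabotropic glutamate and GABA-B receptors signal through G proteins. GABA-A and glycine receptors are chloride channels, and the choice of alpha subunit changes in development: the alpha2 glycine receptor subunit (Glra2) is typical of the fetal and newborn cord and gives way to alpha1 (Glra1). Neurons carry most of these receptors, and oligodendrocyte precursors and astrocytes carry some of them.

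Levels are given in FPKM, fragment counts scaled to transcript length and library size, summed over the transcripts of a gene. Sequencing depth relative to the shallowest library was 2.07 and 1.0 in controls 1 and 2 and 2.22 and 3.19 in cKO 1 and 2. Chd7 itself was at 3.52 and 3.12 FPKM in control tissue and 2.52 and 3.38 FPKM in cKO tissue, which gave -0.13 ± 0.16 (log2 fold change, SE) and did not pass (limma adjusted p = 0.657). The labels do not give the floxed part of the gene, so these totals do not check the genotypes. Neuron markers were high in every library, with a summed level of 2068 to 2098 FPKM over 10 genes in the controls and 2524 to 2955 FPKM in cKO. Myelinating oligodendrocyte markers fell, 9 of 10, from a sum of 16168 to 18454 FPKM in the controls to 6624 to 10364 FPKM in cKO. In bulk tissue, fewer cells of a type and less RNA per cell cannot be told apart.

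Of the 52 subunit genes, 42 reached a mean of 1 FPKM over the 4 libraries and were tested. Gabra2, the alpha2 subunit of the GABA-A receptor, was the 1 that fell, by 2.31-fold on the log2(FPKM + 1) scale. Grm4, Glra2, Gabrg3, Grm3, Gabbr2, Gabra5 and Grid1 rose, and the other 34 did not pass. Among all 12913 gene sums tested, 4.13% rose and 6.54% fell. Most members lay on the higher side of 0: 36 of the 42, the 7 that rose among them, had a log2 fold change above 0, against 49.5% of all gene sums. The median of the members was 0.27 on the log2 scale, beside -0.0028 over all gene sums.

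**Figure D1:**
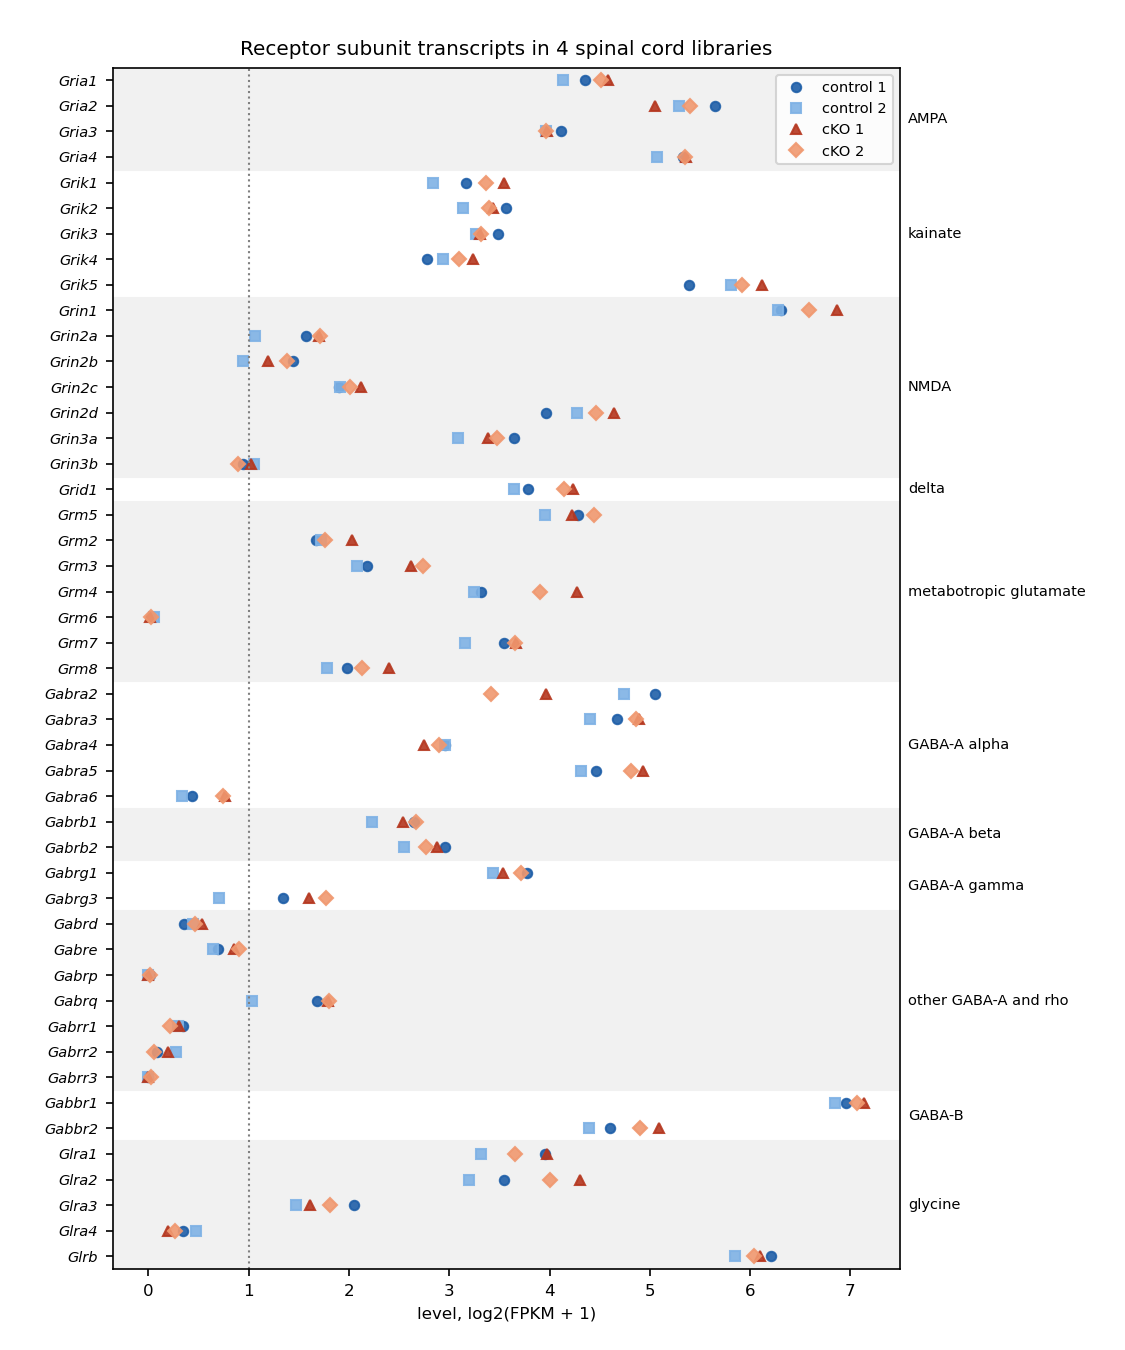
Level of receptor subunit genes in the 4 libraries, as log2(FPKM + 1), grouped by receptor family, for the members reported by name. The dotted line marks 1 FPKM, and the Gabra2 points of the 2 cKO libraries lie to the left of both control points.

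Promoter windows are shown for Gabra2, which fell, and for Glra2 and Gabra5, which rose and belong to the same channel superfamily. They are the 250 bases before the annotated start, from RefSeq on GRCm38.p6, a later build than the mm9 of the deposited tables. Gabra2 is at chr5:71095850-71096099, Glra2 at chrX:165327394-165327643 and Gabra5 at chr7:57510060-57510309, all on the minus strand and printed 5′ to 3′ as the gene is read. Capitals mark matches on either strand to GGGCGG (the GC box of Sp factors), CANNTG (the E-box of basic helix-loop-helix factors), TATAAA (the TATA box) and ACAAAG (a core bound by Sox factors). No 2 motifs overlapped in these windows.
Gabra2: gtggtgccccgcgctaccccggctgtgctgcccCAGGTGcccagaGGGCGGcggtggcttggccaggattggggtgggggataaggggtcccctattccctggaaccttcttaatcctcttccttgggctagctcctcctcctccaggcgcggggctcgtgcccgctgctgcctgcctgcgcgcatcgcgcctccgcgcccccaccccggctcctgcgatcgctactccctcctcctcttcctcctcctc
Glra2: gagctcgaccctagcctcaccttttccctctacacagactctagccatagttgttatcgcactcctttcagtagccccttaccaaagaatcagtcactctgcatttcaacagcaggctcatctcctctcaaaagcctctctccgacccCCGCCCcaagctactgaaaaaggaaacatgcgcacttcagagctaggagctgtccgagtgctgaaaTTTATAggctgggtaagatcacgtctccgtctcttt
Gabra5: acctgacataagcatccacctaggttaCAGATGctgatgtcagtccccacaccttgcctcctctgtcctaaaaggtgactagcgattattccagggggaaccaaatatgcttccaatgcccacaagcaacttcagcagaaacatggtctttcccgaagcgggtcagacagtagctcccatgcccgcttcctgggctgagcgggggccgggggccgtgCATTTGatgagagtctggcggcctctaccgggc
The Gabra2 window, with a GC content of 70.0%, holds an E-box that begins 217 bases before the start and a GC box at 205 bases. The Glra2 window, at 50.4% GC, holds a TATA box on the opposite strand at 36 bases and a GC box at 102 bases. The Gabra5 window has 2 E-boxes and none of the other motifs. A GC box was found in 32.7% of all 32851 windows, an E-box in 66.2%, a TATA box in 12.4% and the Sox core in 16.5%. In the 43 windows of the 36 subunit genes that have an entry, the shares were 48.8%, 46.5%, 11.6% and 6.98%. Member windows had a median GC content of 58.8%, against 52.4% over all windows, and its part in these shares was not tested. None of the 6 changed genes with a window (Gabbr2, Gabra2, Gabra5, Gabrg3, Glra2 and Grm3) has the letters ACAAAG in it. With 16.5% of all windows holding these letters, 6 genes are too few to tell their share from the background. Grm4 and Grid1 have no entry.

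Among the GABA-A alpha subunits, which form the GABA site with the beta subunits, Gabra2 fell. It was at 32.1 and 25.9 FPKM in control tissue (libraries 1 and 2) and 14.6 and 9.67 FPKM in cKO tissue. Both cKO libraries lay below both controls by at least 1.5-fold, as in 2.84% of all gene sums. Mean levels of 28.95 ± 4.39 and 12.1 ± 3.50 FPKM (SD over 2 libraries each) gave -1.21 ± 0.17 (log2 fold change, SE), with a limma adjusted p = 2.76e-06. The call was lost with no filter on low values (adjusted p = 0.0814) and with all transcript lengths summed (0.0878), and over the other 14 alternatives the adjusted p ran from 6.71e-12 to 0.00933.

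Gabra5, known for receptors outside the synapse, moved the other way. It was at 21.0 and 18.9 FPKM in control tissue and 29.5 and 27.2 FPKM in cKO tissue, with no overlap (log2 fold change 0.49 ± 0.16, adjusted p = 0.0388). Gabra3, a subunit common in spinal neurons, was at 24.5 and 20.1 FPKM in control tissue and 28.7 and 28.0 FPKM in cKO tissue and did not pass (0.34 ± 0.16, adjusted p = 0.182). Gabra4 was at 6.76 and 6.80 FPKM against 5.72 and 6.47 FPKM, with cKO on the lower side (-0.14 ± 0.15, adjusted p = 0.637). Gabra6, a subunit of cerebellar granule cells, stayed under 1 FPKM in all 4 libraries and was not tested.

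The share of Gabra2 in the alpha class did not overlap between the groups, although the total of the class did. The 6 alpha subunits summed to 93.2 and 78.2 FPKM in control tissue and 88.6 and 80.3 FPKM in cKO tissue. Gabra2 made up 34.4% and 33.1% of that sum in the controls, where it was the most abundant alpha subunit, and 16.5% and 12.04% in cKO. Gabra3 and Gabra5 were the leading alpha subunits in cKO, Gabra3 at 32.4% and 34.9% and Gabra5 at 33.3% and 33.8%. The ratio of Gabra2 to Gabra3 was 1.31 and 1.28 in the controls and 0.51 and 0.35 in cKO. With 2 libraries against 2, an exact two-sided permutation test of such a ratio cannot go below p = 0.333, the value it gave here.

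**Figure D2:**
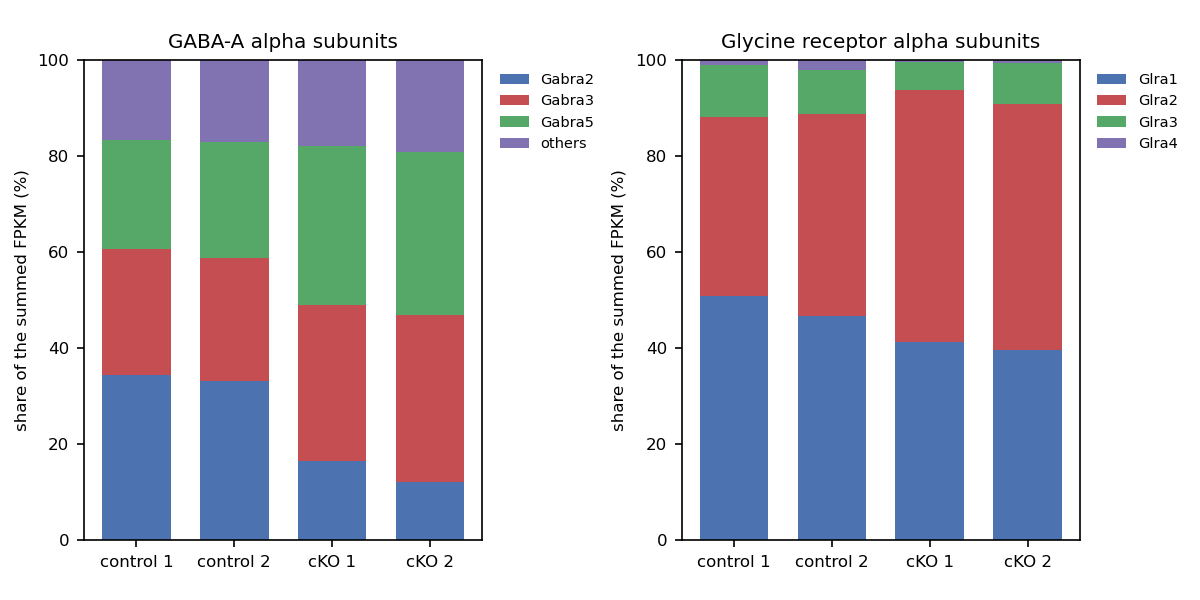
Share of alpha subunits in the summed FPKM of their class, in percent, for GABA-A (left, with the less abundant subunits summed as others) and glycine receptors (right) in the 4 libraries. Gabra2 takes 34.4% and 33.1% in the controls and 16.5% and 12.04% in cKO, and Glra2 takes 37.4% and 42.2% in the controls and 52.5% and 51.2% in cKO.

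GABA-A subunit genes lie in clusters, and none of the neighbours of Gabra2 passed. On chromosome 5 (mm9) the order is Gabrg1 (71142286 to 71233856), Gabra2 (71352296 to 71487088), Gabra4 (71960973 to 72049547) and Gabrb1 (72091255 to 72528483). Gabrg1 was at 12.7 and 9.79 FPKM in control tissue and 10.6 and 12.2 FPKM in cKO tissue, a log2 fold change of 0.025 ± 0.16. Gabrb1 had 0.16 ± 0.16, and neither it, Gabrg1 nor Gabra4 passed. Gabra2 stood at 2.53 and 2.64 times Gabrg1 in the controls and at 1.38 and 0.80 times in cKO, a ratio whose exact p is again the smallest possible (0.333). Gabrg3 and Gabra5, which lie side by side on chromosome 7, both rose, by 0.66 and 0.49 on the log2 scale.

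Beta subunits complete the GABA site, and none of the 3 passed. Gabrb2, at 6.78 and 4.85 against 6.34 and 5.80 FPKM, and Gabrb1, at 5.26 and 3.68 against 4.81 and 5.34 FPKM, overlapped between the groups. Gamma subunits anchor the receptor at synapses and form the benzodiazepine site with alpha. Gabrg3 was low, at 1.53 and 0.63 FPKM in control tissue (libraries 1 and 2) and 2.04 and 2.41 FPKM in cKO tissue. It rose by 0.66 ± 0.17 on the log2 scale (adjusted p = 0.00849), and without control 2 the value was 0.35 (adjusted p = 0.205). The call was also lost without cKO 2 (adjusted p = 0.0697), and over all 16 alternatives the adjusted p ran from 2.23e-06 to 0.215. Gabrq, the theta subunit, was at 2.22 and 1.05 against 2.45 and 2.50 FPKM and did not pass.

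Glycine receptors mediate much of the fast inhibition in the cord. Glra2, the subunit of the immature receptor, was at 10.7 and 8.15 FPKM in control tissue and 18.7 and 15.0 FPKM in cKO tissue, so both cKO libraries were higher. The means of 9.41 ± 1.78 and 16.8 ± 2.61 FPKM (SD, n = 2 each) gave a log2 fold change of 0.78 ± 0.16 (adjusted p = 7.63e-04), which is 1.72-fold higher. Glra1, the adult subunit, was at 14.5 and 8.999 FPKM in control tissue and 14.7 and 11.6 FPKM in cKO tissue, and the groups overlapped (0.18 ± 0.17, adjusted p = 0.579). Glra2 was therefore below Glra1 in both controls, at 0.74 and 0.91 of its level, and above it in both cKO libraries, at 1.27 and 1.29 times (exact permutation p = 0.333, the smallest possible). Glrb, the beta subunit that binds the scaffold gephyrin, was the most abundant at 73.0 and 56.7 against 67.6 and 64.6 FPKM, with a log2 fold change of 0.038 ± 0.18. Its sign was not stable: the value was -0.032 under quantile scaling and -0.14 without control 2. Glra3, a subunit of dorsal horn neurons, was at 3.13 and 1.78 against 2.05 and 2.50 FPKM.

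Glra2 is 1 of 6 members on the X chromosome, with Gria3, Gabra3, Gabrq, Gabre and Glra4. Xist, the transcript of the inactive X chromosome, had control values of 55.6 and 51.8 FPKM and cKO values of 19.6 and 0.23 FPKM. The Y-linked gene Ddx3y was at 11.6 FPKM in cKO 2 and at 0.195 FPKM or less in the other 3 libraries, and Eif2s3y was at 20.4 FPKM in cKO 2 and at 0.35 FPKM or less in the others. Library cKO 2 thus stood apart in Y-linked transcripts, and cKO 1 had less Xist than the controls without them. Glra2 was at 18.7 FPKM in cKO 1 and 15.0 FPKM in cKO 2. Gria3, at 16.3 and 14.6 against 14.7 and 14.7 FPKM, gave -0.068 ± 0.15 on the log2 scale. Gabra3 (0.34 ± 0.16) and Gabrq (0.44 ± 0.17) had both cKO libraries above both controls and did not pass. Of the untested genes on this chromosome, Gabre was higher in both cKO libraries than in both controls, and Glra4 was lower. The part of sex in these values was not tested.

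GABA-B receptors need both of their subunits, Gabbr1 to bind GABA and Gabbr2 to couple to G proteins. Gabbr2 was at 23.3 and 20.0 FPKM in control tissue and 33.1 and 28.9 FPKM in cKO tissue and rose by 0.50 ± 0.16 (adjusted p = 0.0369). Gabbr1 had the highest level of all 52 members, at 123 and 114 FPKM in control tissue and 139.8 and 133 FPKM in cKO tissue. Its groups did not overlap, but its log2 fold change of 0.20 ± 0.19 did not pass (adjusted p = 0.569).

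**Figure D3:**
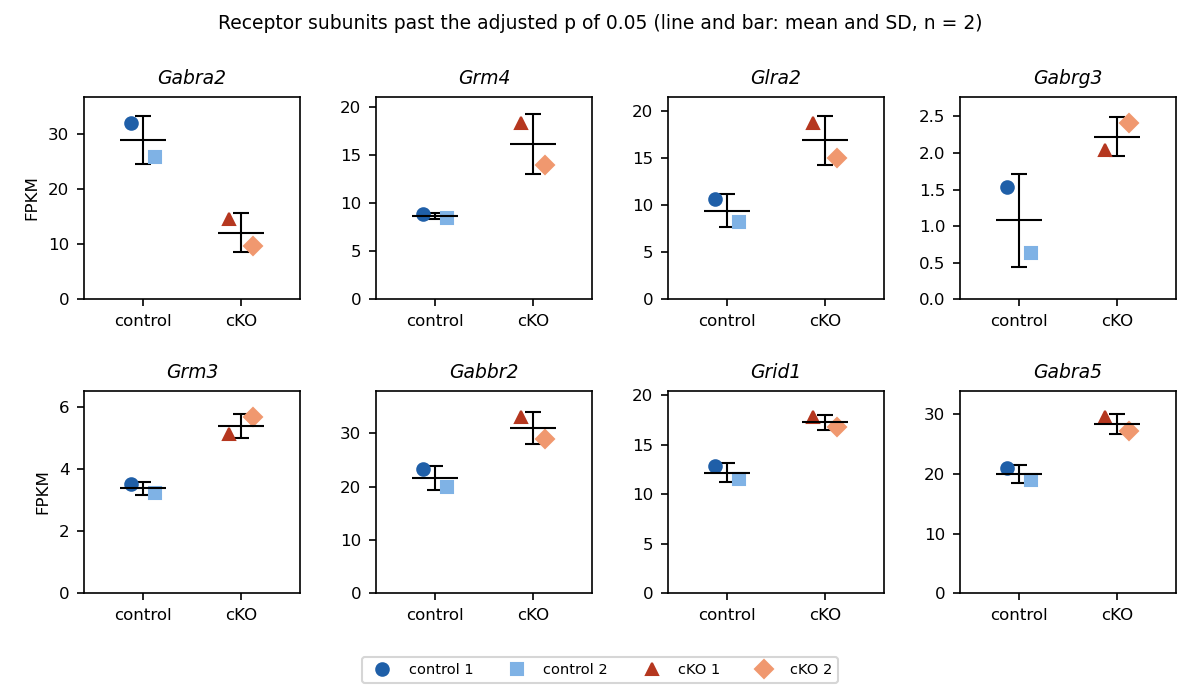
FPKM of the 8 subunit genes that passed, in each library, with a horizontal line for the group mean and a bar for the SD (n = 2). Gabra2 goes from 28.95 to 12.1 FPKM, and the other 7 are higher in both cKO libraries than in both controls.

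Of the 7 tested metabotropic glutamate receptors, 2 rose. Grm4, a presynaptic group III receptor that lowers transmitter release, was at 8.94 and 8.48 FPKM in control tissue and 18.4 and 13.96 FPKM in cKO tissue. Both cKO libraries exceeded both controls by at least 1.5-fold, as 0.991% of all gene sums did. The means of 8.71 ± 0.327 and 16.2 ± 3.12 FPKM (SD, n = 2 each) gave a log2 fold change of 0.81 ± 0.16 (adjusted p = 3.73e-04). Grm3, a group II receptor found on neurons and glia, was at 3.54 and 3.23 FPKM in control tissue and 5.14 and 5.69 FPKM in cKO tissue, and rose by 0.55 ± 0.15 (adjusted p = 0.0133).

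The other 5 tested metabotropic receptors did not pass, and all had log2 fold changes above 0. Grm5, a postsynaptic group I receptor with the highest mean of the class, although below Grm4 in cKO 1, was at 18.5 and 14.5 against 17.7 and 20.7 FPKM, with overlapping groups. Grm7 was at 10.7 and 7.95 against 11.7 and 11.6 FPKM. Within group III, Grm4 made up 39.6% and 44.8% of the summed FPKM in the controls and 53.5% and 48.2% in cKO. It exceeded Grm7 in control 2 and in both cKO libraries, with a ratio of 0.84 and 1.07 in the controls and 1.57 and 1.2004 in cKO. Grm8, at 2.94 and 2.45 against 4.28 and 3.38 FPKM, missed the threshold (adjusted p = 0.110), and Grm2 had a log2 fold change of 0.20. Grm6, the receptor of retinal bipolar cells, was at most 0.037 FPKM.

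AMPA receptors carry fast excitation, and their 4 subunits did not pass. Gria2, the subunit that makes the channel impermeable to calcium, was at 49.1 and 38.2 FPKM in control tissue and 32.2 and 41.1 FPKM in cKO tissue, and the groups overlapped (-0.25 ± 0.17, adjusted p = 0.411). Gria4 was at 39.2 and 32.6 against 40.0 and 39.8 FPKM. Gria1 was at 19.4 and 16.6 FPKM in control tissue and 22.9 and 21.9 FPKM in cKO tissue (0.30 ± 0.16, adjusted p = 0.226). Gria2 took 39.6% and 37.4% of the summed AMPA level in the controls and 29.3% and 34.997% in cKO, so its share was lower in both cKO libraries, most clearly in cKO 1.

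Kainate receptors, which tune release and excitability, were led by Grik5, a subunit that needs Grik1, Grik2 or Grik3 to form a channel. Grik5 was at 40.9 and 55.1 FPKM in control tissue and 68.6 and 59.4 FPKM in cKO tissue, with no overlap (0.42 ± 0.18, adjusted p = 0.130). Grik1, at 7.98 and 6.17 against 10.7 and 9.30 FPKM, came closest to the threshold (0.45 ± 0.15, adjusted p = 0.0531). Grik2, at 10.8 and 7.83 against 9.80 and 9.56 FPKM, overlapped between the groups, and its value of 0.065 turned to -0.15 without control 2. Grik3, at 10.2 and 8.64 against 8.91 and 8.95 FPKM, and Grik4, at 5.85 and 6.64 against 8.40 and 7.59 FPKM, did not pass either.

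NMDA receptors contain the obligatory Grin1 with subunits of the Grin2 class. Grin1 was at 78.2 and 76.6 FPKM in control tissue and 116.0 and 94.99 FPKM in cKO tissue, with no overlap, but did not pass (0.44 ± 0.18, adjusted p = 0.128). Grin2d, the slowly closing subunit of the immature cord, was at 14.6 and 18.4 against 23.99 and 20.99 FPKM (0.43 ± 0.16, adjusted p = 0.0751). Grin2d made up 69.5% to 79.4% of the Grin2 level in the 4 libraries, against 3.99% to 8.14% for Grin2b and 4.71% to 9.38% for Grin2a. Grin2c was at 2.73 and 2.75 against 3.35 and 3.04 FPKM. Grin3a, which lowers calcium entry, was at 11.5 and 7.49 against 9.49 and 10.1 FPKM. The 6 tested NMDA subunits all lay above 0, with a median of 0.28, and none passed.

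Delta receptors bind cerebellins and organize synapses. Grid1 was at 12.8 and 11.5 FPKM in control tissue and 17.8 and 16.7 FPKM in cKO tissue and rose by 0.47 ± 0.15 (adjusted p = 0.0387). Cbln1, a secreted partner of delta receptors, was at 22.2 and 20.8 FPKM in control tissue and 34.4 and 29.9 FPKM in cKO tissue and rose by 0.55 ± 0.16 (adjusted p = 0.0176).

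**Figure D4:**
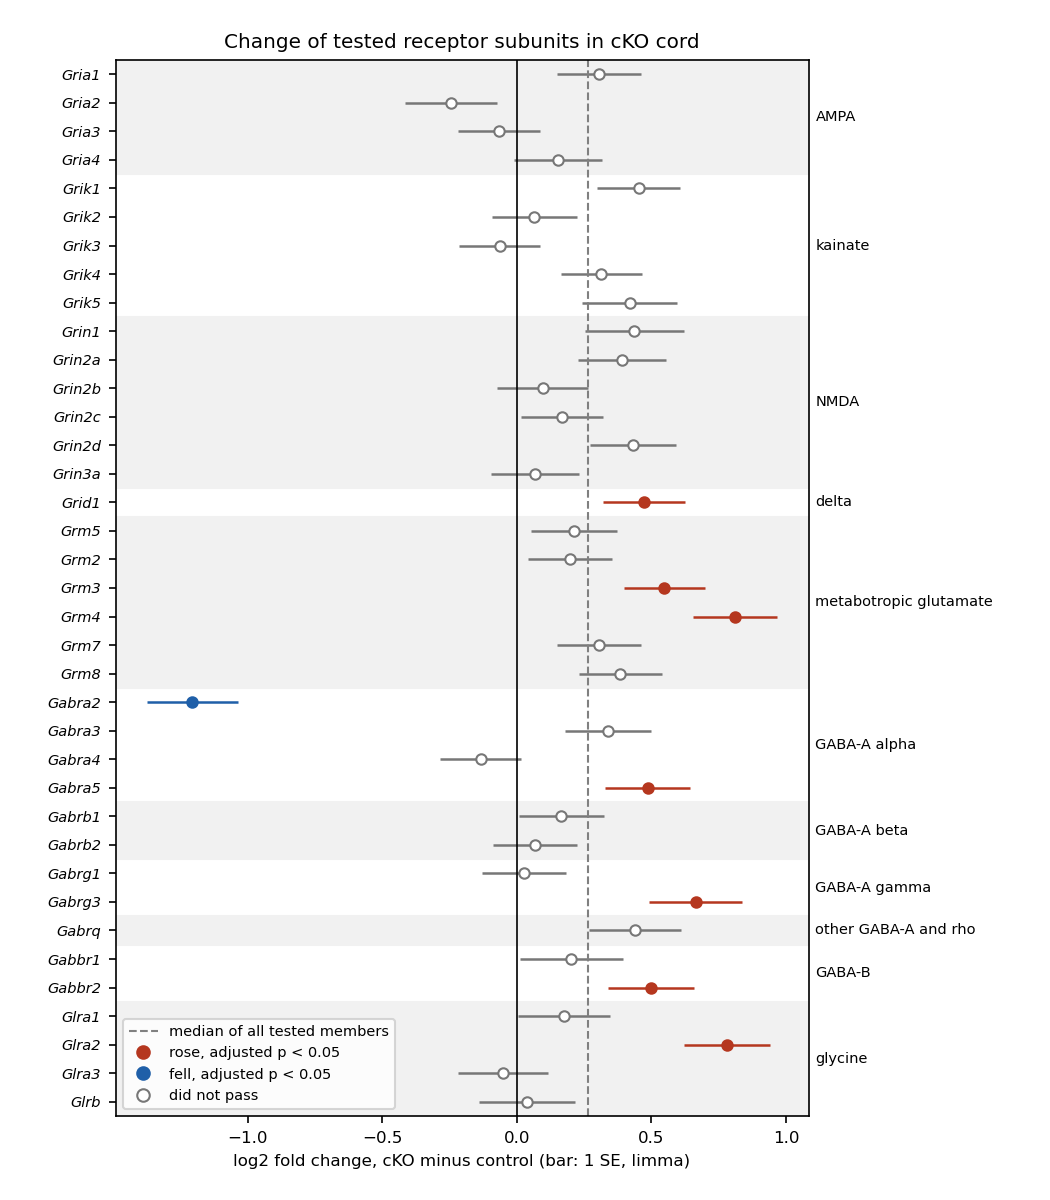
Log2 fold change of cKO against control for the tested subunit genes reported by name, grouped by family, with a bar of 1 SE from limma. Filled points passed, and the dashed line marks the median of all 42 tested members, 0.27, with Gabra2 far to its left at -1.21.

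The 10 untested genes had means under 1 FPKM. Grin3b, the highest of them, was at 0.93 and 1.07 FPKM in control tissue and 1.03 and 0.86 FPKM in cKO tissue. Gabre was at 0.61 and 0.56 against 0.81 and 0.87 FPKM, Gabra6 at 0.35 and 0.27 against 0.70 and 0.67 FPKM, and Gabrd, the extrasynaptic delta subunit, at 0.28 and 0.37 against 0.45 and 0.38 FPKM. Glra4 was at 0.27 and 0.39 against 0.14 and 0.21 FPKM. The retinal rho subunits Gabrr1, Gabrr2 and Gabrr3, Gabrp and Grm6 did not exceed 0.27 FPKM in any library.

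Control 2 was the lowest library for most receptor genes. It had the lowest value of the 4 libraries in 34 of the 42 tested members, against 3303 of the 12913 gene sums. The members' median relative to the control mean was 0.15 in control 1, -0.15 in control 2, 0.33 in cKO 1 and 0.24 in cKO 2. Both cKO libraries lay above both controls in 23 members and below them in 2, Gabra2 and Gabra4, beside 24.3% and 29.3% of all gene sums. Without control 2, the members' median was 0.11 and 4 rose (Grm4, Glra2, Grm3 and Grin2d). Without cKO 2, 3 rose (Grm4, Glra2 and Gabbr2). Without cKO 1, the library farthest from the controls in the median, 1 rose (Gabrg3), and the adjusted p was 0.0676 for Grm4 and 0.0629 for Glra2. Of the 16 alternatives, Grm4 and Glra2 passed in 13 each, Grm3 in 10, Gabrg3 in 9, Gabbr2 in 8 and Grid1 and Gabra5 in 6 each.

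Transcript length moved with the difference between the controls. Over gene sums other than the members, the median of control 2 minus control 1 went from 0.20 on the log2 scale in the shortest of 10 bins of transcript length to -0.18 in the longest. The tested members are long, with a median transcript of 3860 bases against 2871 over all gene sums. In the 3 bins that hold most members, from 3362 to 6163 bases, the other genes had a median of cKO minus control of -0.032, -0.051 and -0.058. The members are also wide genes, and 26 of the 42 fall in the widest of 10 bins of genomic span, at least 132.7 kilobases. The other 1266 genes of that bin had a median of 0.065, with 59.4% above 0, and 4.98% of them rose. The part of length in the members' values was not tested.

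**Figure D5:**
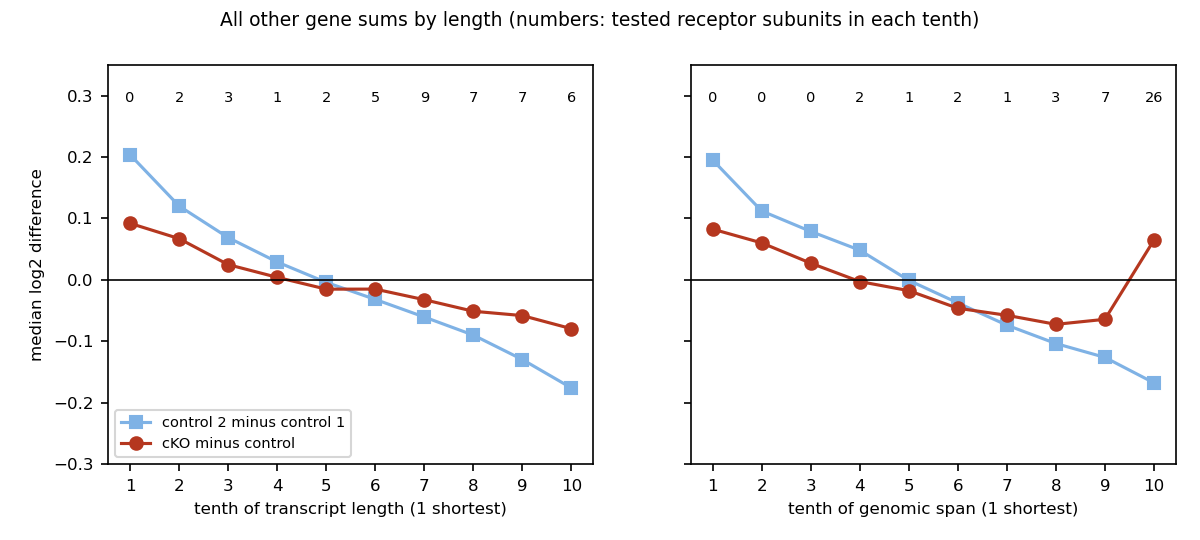
Median log2 difference of all gene sums other than the members, in 10 bins of transcript length (left) and of genomic span (right), for control 2 minus control 1 and for cKO minus control. The numbers at the top count the tested receptor subunits in each bin, of which 26 lie in the widest span.

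Markers of neurons stood beside the receptors. Of 10 neuron markers 9 lay above 0, with a median of 0.28, and none passed. Of 5 motor neuron markers, Slc18a3 rose. Astrocyte markers, 9 genes, had a median of 0.00037 with summed levels of 1912 to 2105 FPKM in the controls and 1555 to 1993 FPKM in cKO, and Slc1a3 rose. The 5 precursor markers did not pass, with sums of 127.9 to 135 FPKM and 124 to 147 FPKM. Meningeal markers summed to 296 and 126 FPKM in controls 1 and 2 and to 166 and 146 FPKM in cKO, and 5 of 7 fell and 1 rose. Igfbp2, the 1 that rose, made up most of the cKO sums, at 64.1 and 82.2 against 143 and 118 FPKM. Ptgds, which fell, was at 161 FPKM in control 1, 16.2 FPKM in control 2 and 4.57 and 7.54 FPKM in cKO. Schwann cell markers fell, 3 of the 3 tested among 5, from 260 to 300 FPKM to 81.0 to 141 FPKM, and 3 of 5 microglia markers fell. Vascular markers did not pass, 0 of 5, and sensory ganglion markers were at 0.48 FPKM or less in every library, apart from Pou4f1, which rose. The part of any of these cell types in the receptor values was not tested.

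Partners of the receptors came from lists chosen with earlier results of these data known. Of 25 measured scaffolds and auxiliary subunits of glutamate receptors, 7 rose and 1 fell, with a median of 0.29. Over all gene sums, 4.13% rose and 6.54% fell, with a median of -0.0028, and the neuron markers had a median of 0.28. Cnih2, a cornichon protein that slows AMPA receptors, was at 51.2 and 69.3 FPKM in control tissue and 114 and 91.4 FPKM in cKO tissue (0.77 ± 0.19, adjusted p = 0.00496). Its relative Cnih3, the AMPA receptor auxiliaries Cacng2, Cacng3 and Cacng4, the scaffold Shank1 and Cbln1 also rose, by 0.45 to 0.55. Cacng2 (stargazin) was at 12.1 and 9.57 against 17.2 and 15.1 FPKM and Shank1 at 20.6 and 22.6 against 30.9 and 31.4 FPKM. Dlg1, the scaffold SAP97, was at 19.7 and 19.1 against 11.98 and 14.9 FPKM and fell (-0.51 ± 0.16, adjusted p = 0.0285). Among those that did not pass, the postsynaptic scaffold Dlg4 was at 65.8 and 74.9 against 93.6 and 84.7 FPKM, and Cacng7 at 83.8 and 88.3 against 97.3 and 101.7 FPKM.

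Inhibitory partners mostly did not pass, and 1 rose and 1 fell, beside 4.13% and 6.54% of all gene sums. Of 15 tested, Slc12a2, the transporter NKCC1 that brings chloride into immature neurons and glia, fell from control values of 36.9 and 30.2 FPKM to cKO values of 11.9 and 19.1 FPKM (-1.09 ± 0.17, adjusted p = 2.60e-05). Slc12a5, the neuronal transporter KCC2 that extrudes chloride, was at 75.0 and 73.7 against 95.3 and 84.3 FPKM and did not pass (0.27 ± 0.18, adjusted p = 0.386). Kctd8, an auxiliary subunit of GABA-B receptors, was at 6.64 and 5.67 against 9.80 and 8.61 FPKM and rose by 0.51 ± 0.15 (adjusted p = 0.0221). The receptor trafficking genes Gabarap, Gabarapl1 and Gabarapl2 were the most abundant of the list, with overlapping groups and log2 fold changes of 0.0049, 0.042 and -0.0026.

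Of 18 transporters and enzymes that supply the transmitters, 3 rose and 1 fell, beside 4.13% and 6.54% of all gene sums. Slc1a6, a neuronal glutamate transporter, was at 11.2 and 10.01 against 18.98 and 14.03 FPKM and rose by 0.58 ± 0.16 (adjusted p = 0.0121). Slc32a1, the vesicular transporter of GABA and glycine, was at 57.2 and 49.7 against 95.5 and 67.1 FPKM, and the astrocyte glutamate transporter Slc1a3 at 57.1 and 48.7 against 80.2 and 83.0 FPKM, and both rose. Slc6a13, a GABA transporter also found in meninges, stood at 4.00 FPKM in control 1, against 0.85 FPKM in control 2 and cKO values of 0.56 and 0.51 FPKM and fell (adjusted p = 0.00285), with control 1 alone above 1 FPKM. Slc6a11, a GABA transporter of astrocytes and the most abundant of the list, was at 242 and 231 against 345 and 365 FPKM and did not pass (0.58 ± 0.22, adjusted p = 0.0863). Glul, the glutamine synthetase of astrocytes, and Slc1a2 did not pass either.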

How the data were processed

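Per the labels' protocols, RNA was taken up in Trizol and sequenced after preparation with a TruSeq RNA kit. The authors deposited FPKM, and coverage as a signal of sequencing depth, for each RefSeq transcript on mm9, per the file headers. The submitters' processing notes name CASAVA, TopHat, Cufflinks and Cuffdiff without versions. Here the 4 tables (28107 rows) were matched by transcript, 315 rows that Cufflinks did not mark OK throughout were left out, and FPKM was summed per symbol over transcripts of at least 300 bases. Gene sums with a mean of at least 1 FPKM were tested as log2(FPKM + 1) with limma 3.58.1 in R 4.3.3 (mean-variance trend, 2 residual and 36.3 prior degrees of freedom), adjusted by Benjamini-Hochberg over all 12913 sums at 0.05. Fold changes on this scale understate those of low genes. Total read numbers were not used here, so relative depth came from the ratio of coverage to FPKM. Groups came from the sample titles. The members, the lists and the genes given in full (those past the threshold, those beyond 1.5-fold in every library, the 2 most abundant of each family, and for partners those past the threshold with up to 4 abundant others) were chosen with earlier results of these data known. The script was tested on simulated data. Coordinates are mm9 with starts counted from 1, apart from promoter windows (RefSeq, GRCm38.p6). The list symbol Map2 was matched as Mtap2 through its accession. Some genes are counted in the totals but not reported here by name. The alternatives were other pseudocounts, filters, scalings, variance models and ways of summing, a replicate block, and leaving out each library.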

Additional observations from a re-analysis of the deposited data

How the results depend on the processing

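Of 384 values of 24 named members over 16 alternatives, 325 kept direction and side of the threshold, 49 lost the call, 4 gained it and 6 changed sign, all 6 in members that had not passed. The sign changes were Grik2 (-0.15), Gabrb2 (-0.14), Gabrg1 (-0.15) and Glrb (-0.14) without control 2, Gabrg1 (-0.067) without cKO 2 and Glrb (-0.032) under quantile scaling. Over the libraries left out in turn, Gabrg1 ran from -0.15 to 0.19 and Glrb from -0.14 to 0.22. The count of members that rose, 7, became 0 with no filter and with all transcript lengths summed, 2 under TPM scaling and with the highest transcript of each gene, 3 under quantile scaling, and 1 to 10 when 1 library was left out. At an unadjusted p under 0.05 from limma, 15 members lay higher and 2 lower with no filter, and 12 and 1 with all lengths summed, beside 17 and 1 in the reported fit. The 1 member that fell, Gabra2, was lost with no filter and with all lengths summed, where the count was 0, and fell in each of the other 14. Over all gene sums, 533 rose and 845 fell. With no filter these counts were 22 and 33, with all lengths summed 23 and 30, under TPM scaling 241 and 446, under quantile scaling 310 and 426, with the highest transcript 179 and 408, and under median-of-ratios scaling 550 fell. Leaving out 1 library gave 107 to 555 that rose and 277 to 900 that fell. The cause of these changes was not tested. With 1 library left in a group, it is assumed to vary like the others. Control and cKO libraries share the numbers 1 and 2, which the labels do not tie to a litter or batch, and deviations of same-numbered libraries correlated at -0.24 across genes. With the replicate number as a block, 4 members rose (Gabrg3, Glra2, Grm3 and Grm4), 1 fell, and 351 gene sums rose in all. The members' median of 0.27 ran from 0.11 without control 2 to 0.38 without control 1.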

Other observations

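Transcript variants of 11 subunit genes are listed separately, and their shares are estimates by Cufflinks from reads that the variants largely share. They were not tested. Grm5 has a transcript of 8524 bases and one of 8428 bases. The longer one made up 44.5% and 39.6% of the Grm5 level in the controls and 29.3% and 26.6% in cKO, so the groups did not overlap while the gene's total did. The 2 Gria1 transcripts are both 5665 bases long, and the less abundant one took 42.6% and 40.9% in the controls and 49.8% and 45.6% in cKO. Shares of the 3 Gria4 transcripts were close between all libraries, with the short form of 2338 bases at 21.3% to 24.8%. The short Gria2 form of 3491 bases took 30.0% and 26.1% in the controls and 23.6% and 28.2% in cKO. Estimates for other genes differed as much within a group: the Grin1 transcript of 3818 bases took 29.9% in control 1 and 50.3% in control 2. The Gabra6 transcript of 2438 bases took 99.7% and 99.2% in the controls and 0.29% and 0.049% in cKO, at a level of the gene under 1 FPKM in every library. All 8 members that rose or fell have 1 transcript in the tables, so their values do not depend on such shares.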
